A study of Mus musculus with 30 samples.

Results

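Mt1, Mt3, Slc30a1, Slc30a3 and Slc39a10 are genes that bind zinc or carry it across membranes. They were taken by name, matched by Ensembl identifier, and number 5 of the 55401 genes in the count tables of this study of the mouse hypothalamus. The set was chosen by the CPM of Mt1 across the 9 groups, that is, for the pattern of Mt1, so the values of Mt1 are given as a description without a test, and the other 4 genes were tested. RNA was sequenced from the hypothalamus of wild-type B6 mice in different feeding states, whose sex and age the labels do not give. A first table of counts held fed mice (n = 3), mice fasted for 24 h (n = 3), mice fasted for 72 h (n = 3) and mice that spent a 72 h fast at 18 C (n = 3), called the cold fast here. A second table held mice refed for 1 h (n = 3), 12 h (n = 3) or 1 week (n = 4) after a fast of 72 h, with no fed or unrefed group of its own. The last held mice refed for 1 month after a fast of 72 h (n = 4) and their fed controls (n = 4).

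Metallothioneins are small, cysteine-rich proteins that hold zinc and copper. Mt1 and its neighbour Mt2 are made in most tissues, in the brain largely by astrocytes, and are induced by metals through the zinc-sensing factor MTF1 and by glucocorticoids, while Mt3 is a form found mainly in the brain that metals do not induce. Proteins of the SLC30 family (ZnT) move zinc out of the cytosol, and those of the SLC39 family (ZIP) move it in. Slc30a1 encodes the exporter of the cell surface and is another target of MTF1, Slc30a3 encodes the carrier that fills synaptic vesicles of forebrain glutamatergic neurons with zinc, and Slc39a10 encodes an importer of the cell surface that MTF1 is known to repress when zinc is plentiful.

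The metallothionein genes lie together on chromosome 8 of GRCm38. Mt3 (ENSMUSG00000031760) spans 94152607 to 94154146, Mt2 (ENSMUSG00000031762) spans 94172664 to 94173568 and Mt1 (ENSMUSG00000031765) spans 94179082 to 94180327, all on the forward strand. The gap from Mt3 to Mt2 is 18517 bases and that from Mt2 to Mt1 is 5513 bases. Slc30a1 (ENSMUSG00000037434) lies on chromosome 1 from 191906767 to 191913247, Slc39a10 (ENSMUSG00000025986) on chromosome 1 from 46807544 to 46892852, and Slc30a3 (ENSMUSG00000029151) on chromosome 5 from 31086106 to 31108237.

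The 250 bases before the start site are shown for the 3 metallothionein genes and for Slc30a1, because Mt1, Mt2 and Slc30a1 are known to be induced by metals through MTF1 and Mt3 is not. The sequences come from RefSeq (GRCm38.p6, forward strand, 5′ to 3′) at chr8:94178839-94179088 for Mt1, chr8:94172368-94172617 for Mt2, chr8:94152357-94152606 for Mt3 and chr1:191906531-191906780 for Slc30a1. Capitals mark matches to the core of the metal response element bound by MTF1, searched as TGCACNC or TGCGCNC on both strands.
Mt1: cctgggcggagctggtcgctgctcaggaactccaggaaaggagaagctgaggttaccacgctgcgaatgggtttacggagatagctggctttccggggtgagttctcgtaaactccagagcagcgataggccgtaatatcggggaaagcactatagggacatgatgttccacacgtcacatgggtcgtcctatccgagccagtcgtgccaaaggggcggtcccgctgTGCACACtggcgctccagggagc
Mt2: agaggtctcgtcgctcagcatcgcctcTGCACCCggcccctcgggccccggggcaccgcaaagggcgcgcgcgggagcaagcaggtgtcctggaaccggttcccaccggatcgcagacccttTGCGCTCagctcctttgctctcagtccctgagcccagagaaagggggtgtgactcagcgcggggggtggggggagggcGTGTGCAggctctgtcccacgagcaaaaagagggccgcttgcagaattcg
Slc30a1: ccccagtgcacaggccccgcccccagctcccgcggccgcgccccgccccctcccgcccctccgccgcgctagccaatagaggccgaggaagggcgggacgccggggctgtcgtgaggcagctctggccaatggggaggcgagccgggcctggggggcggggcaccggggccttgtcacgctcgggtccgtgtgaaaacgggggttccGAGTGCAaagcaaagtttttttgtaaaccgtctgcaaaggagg
Mt3: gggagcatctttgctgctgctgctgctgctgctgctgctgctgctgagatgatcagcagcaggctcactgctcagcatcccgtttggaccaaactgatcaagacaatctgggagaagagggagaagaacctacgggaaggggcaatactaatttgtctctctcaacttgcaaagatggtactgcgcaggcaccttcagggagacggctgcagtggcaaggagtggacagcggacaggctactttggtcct

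Counted over the window of 300 bases that adds the first 50 bases after the start site, Mt1 held 3 core matches, Mt2 held 4, Slc30a1 held 2 and Mt3 held 1. Slc30a3 held 1 at the first of its 2 start sites, at position -77, and 0 at the other, and Slc39a10 held 0 at both of its start sites. Matches before the start site began at position -23 in Mt1, at -223, -128 and -50 in Mt2 and at -43 in Slc30a1. Those after the start site began at 3 and 21 in Mt1, at 5 in Mt2, at 31 in Slc30a1 and at 28 in Mt3. Of all 32851 such windows 25.7% held at least 1 match, 7.11% at least 2 and 1.97% at least 3. Positions count from the RefSeq start site, and elements outside the window were not searched. A match of letters is a description and does not show that the site is bound.

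Libraries held 27.1 to 43.4 M counts in the fasting table, 26.1 to 34.1 M at 1 h and 12 h of refeeding, 46.9 to 64.3 M at 1 week and 9.35 to 13.8 M in the 1-month table. Levels are in CPM, a library's counts brought to a common total by TMM scaling, and changes are edgeR log2 fold changes ± SE of the first-named group over the second. The term called means an adjusted p below 0.05 in edgeR's quasi-likelihood test, with Benjamini-Hochberg adjustment over all genes of the table. Nothing in the labels ties each library to an animal of its own, so p-values here gauge how libraries vary, which may be technical. All 10 markers of hypothalamic neurons were detected in every group, with summed levels of 151 to 554 CPM in the fasting and refeeding tables and 829.2 to 1093 CPM in the 1-month table. All 8 markers of cortical glutamatergic neurons and all 8 of striatal neurons were detected as well. Library 2 of the 24 h fast stood apart, with 5291 CPM of summed astrocyte markers, against 4084 and 4221 CPM in the other 24 h libraries, and with 410 CPM of cortical markers, against 183 and 202 CPM. Liver markers summed to 2.47, 845 and 125 CPM in the 3 fed libraries, to 44.8, 150.5 and 55.5 CPM in the 3 libraries of the 24 h fast and to 1.86 to 2.33 CPM after the 72 h fast. In bulk tissue, fewer cells of a type and less RNA per cell cannot be told apart.

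Mt1 was at its lowest at 12 h of refeeding. It read 172, 148 and 153 CPM in the 1 h libraries, 52.0, 48.8 and 56.0 CPM in the 12 h libraries, and 97.3, 109, 92.4 and 97.3 CPM in the 1-week libraries. Each 12 h library was below each 1-week library, and each 1-week library was below each 1 h library. The mean was 158 ± 12.6 CPM at 1 h (SD, n = 3), 52.3 ± 3.62 CPM at 12 h (n = 3) and 99.0 ± 7.14 CPM at 1 week (n = 4). The log2 fold change was -1.59 ± 0.08 for 12 h over 1 h, a ratio of 0.331. It was 0.92 ± 0.08 for 1 week over 12 h and -0.67 ± 0.07 for 1 week over 1 h, so at 1 week Mt1 stood at 0.628 of its 1 h mean. Leaving out any single library kept these between -1.65 and -1.53, between 0.88 and 0.97 and between -0.72 and -0.60.

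In the fasting table Mt1 read 191, 196 and 152 CPM in the fed libraries, 189, 282 and 199 CPM after 24 h and 180, 154 and 145 CPM after 72 h. The fed libraries overlapped both fasted groups, and the 72 h libraries all lay below the 24 h libraries. The log2 fold change was 0.32 ± 0.16 for 24 h over fed, -0.17 ± 0.16 for 72 h over fed and -0.48 ± 0.16 for 72 h over 24 h. The library of 282 CPM is the one that stood apart above. Without it the change was 0.11 ± 0.14 for 24 h over fed and -0.28 ± 0.14 for 72 h over 24 h, and without fed library 3 it was 0.21 ± 0.17 for 24 h over fed.

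Cold added to the fast went with higher Mt1. It read 270.5, 204 and 245 CPM in the cold libraries, against 180, 154 and 145 CPM after 72 h without cold. The groups did not overlap, the ratio of their means was 1.5 and the log2 fold change was 0.59 ± 0.16. In the 1-month table Mt1 read 156, 181, 191 and 205 CPM in refed libraries and 137, 131, 177 and 143 CPM in fed controls. These groups overlapped, with a log2 fold change of 0.32 ± 0.10 for refed over control.

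**Figure D1:**
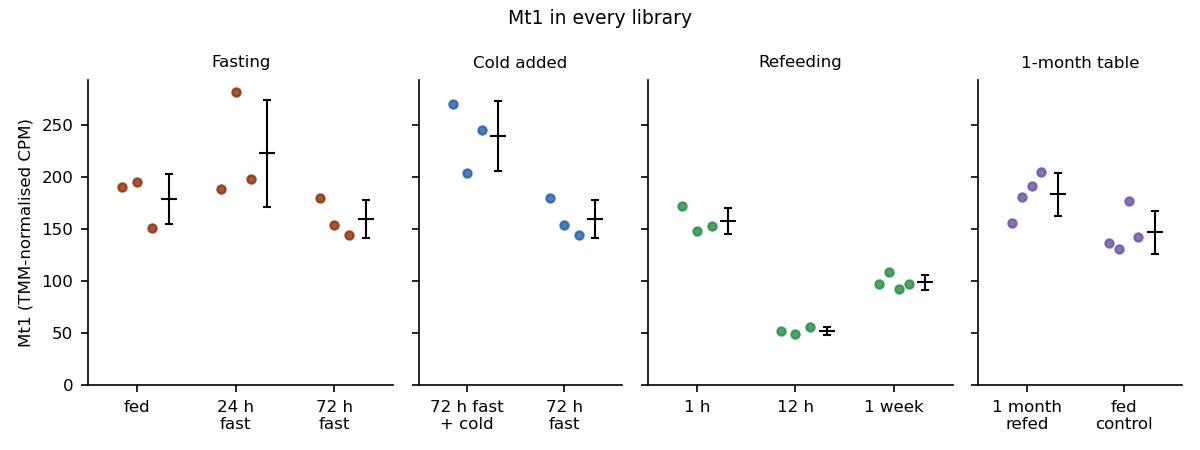
Mt1 level (TMM-normalised CPM, linear axis from 0) in every library, in 4 panels for fasting, added cold, refeeding and the 1-month table; dots are libraries in replicate order, and the bar beside them is the mean with its SD. The 12 h libraries, at 48.8 to 56.0 CPM, are the lowest of the 30, and the 72 h libraries without cold are shown in both of the first panels.

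In order of mean level the 9 groups ran from the cold fast (240 ± 33.7 CPM, SD, n = 3) through 24 h of fasting (223 ± 51.3 CPM, n = 3), 1 month refed (184 ± 20.7 CPM, n = 4), fed (179 ± 24.2 CPM, n = 3), 72 h of fasting (160 ± 18.5 CPM, n = 3), 1 h refed (158 ± 12.6 CPM, n = 3) and the 1-month fed control (147 ± 20.5 CPM, n = 4) to 1 week and 12 h refed. Up to the 1-month control, each group overlapped the next in this order. The 1-week libraries lay below all of that control, and the 12 h libraries below all of the 1-week ones. The 3 tables were normalised separately, and counting appears to have taken in introns in the fasting and refeeding tables. Levels of the 1-month groups may thus not be on the same scale as the others, and this order across tables carries no test.

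Summed levels of 20 genes known to respond to glucocorticoids, a list set beside Mt1, were 792 to 941 CPM in fed libraries, 1203 to 1327 CPM after 24 h and 843 to 924 CPM after 72 h. They were 1114 to 1479 CPM in the cold fast, against the 843 to 924 CPM of the same fast without cold. In refeeding they were 907 to 1213 CPM at 1 h, 499 to 582 CPM at 12 h and 474 to 584 CPM at 1 week. At 12 h and 1 week these sums overlapped, while Mt1 did not. The 10 astrocyte markers summed to 3744 to 3879 CPM at 1 h, 3020 to 3602 CPM at 12 h and 3289 to 3679 CPM at 1 week, and all 10 were above 0 in each group. Their sums were 4340 to 4766 CPM in the cold fast and 3882 to 4060 CPM in the fast without cold. The part of either list in the levels of Mt1 was not tested.

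Mt2, the close relative next to Mt1, could be read in the 1-month table alone. It had 86.2, 116, 109 and 108 CPM in refed libraries and 93.6, 96.2, 170.5 and 86.3 CPM in fed controls, with a log2 fold change of -0.09 ± 0.23 (95% interval -0.55 to 0.37, edgeR adjusted p = 0.843). The groups overlapped, and control library 4 was far above the other 3. In the fasting libraries Mt2 read 0.341 to 1.44 CPM and in the refeeding libraries 0 to 0.474 CPM. Gm45774, an annotated gene on the opposite strand, covers 82.8% of the span of Mt2, and no other gene overlaps Mt1 or Mt3. Among protein-coding genes that reached 100 counts in the 1-month table, 588 had at least 80% of their span so overlapped. Of these, 501 (85.2%) were below 0.1 of their 1-month CPM in the fasting table and 499 (84.9%) in the refeeding table. Of 6470 genes without overlap, 11 (0.170%) and 4 (0.0618%) were. Whether reads were counted by strand is not stated, so the low values of Mt2 in these tables are not read as low expression.

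**Figure D2:**
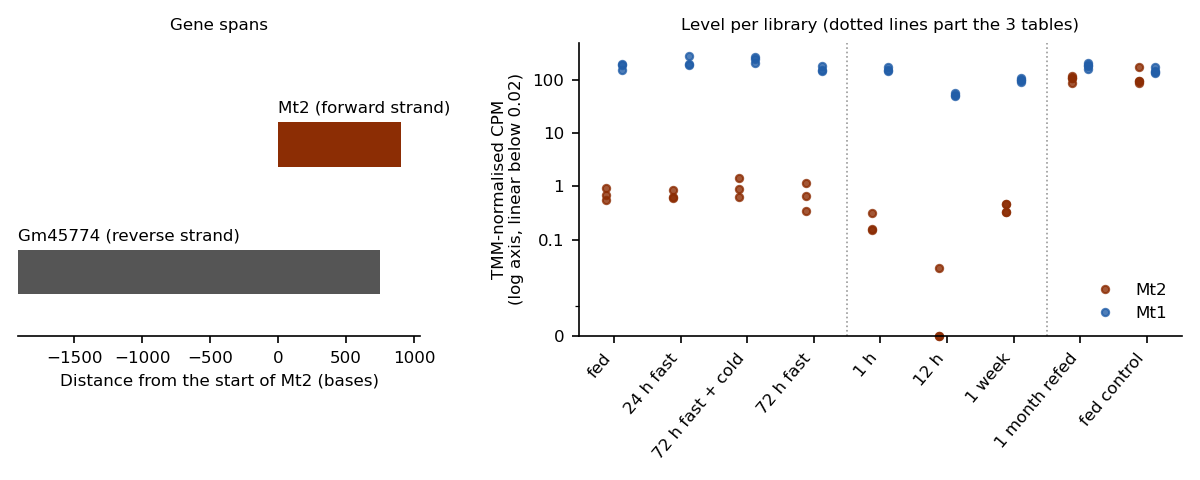
Left, the spans of Mt2 and of Gm45774 on the opposite strand, in bases from the start of Mt2; right, the levels of Mt2 and Mt1 in every library by group (TMM-normalised CPM, log axis that is linear below 0.02, dotted lines between the fasting, refeeding and 1-month tables). Mt1 lies between 48.8 and 282 CPM throughout, and Mt2 reaches 86.2 to 170.5 CPM in the 1-month table but at most 1.44 CPM in the others.

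The few Mt2 counts that remained in the refeeding table numbered 19 over the 1 h libraries, 1 over the 12 h libraries and 90 over the 1-week libraries. Relative to depth the ratio was 0.0549 for 12 h over 1 h (exact 95% interval 0.00132 to 0.346) and 35.7 for 1 week over 12 h (6.24 to 1424), intervals that cover counting error only. Those of Mt1 from the same libraries were 0.332 and 1.88. The edgeR test called Mt2 lower at 12 h than at 1 h and higher at 1 week than at 12 h, while DESeq2 gave it no adjusted p in either comparison. With the 12 h and 1 h libraries fitted alone, the filter on low counts dropped Mt2. It thus entered the refeeding fit through the 1-week libraries, where it was highest, and these calls are given no weight.

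Among the 4 members other than Mt1, calls are given beside the share of all genes called. In simulated data the fit recovered 24 to 38% of 1.5-fold changes in the fasting comparisons. It recovered 66 to 84% in the refeeding comparisons and 80% at 1 month, so counts of calls are not compared between tables. For 1 week over 12 h of refeeding 3 of the 4 were called, with Mt3 and Slc30a1 higher and Slc39a10 lower, beside 11.6% of all genes tested. Between 1 week and 1 h 1 was called, Slc30a1 (higher at 1 week), beside 26.9% of all genes, and for 12 h over 1 h 1 was called, Slc39a10 (higher), beside 14.2%. For 72 h over fed 1 was called, Slc39a10 (lower), beside 15.1%. The 1-week libraries stood apart in other ways too, with 46.9 to 64.3 M counts against 26.1 to 34.1 M at 1 h and 12 h. Blood markers (4 of 5 detected, Alas2 at 0) summed to 401 to 1257 CPM at 1 week, 76.4 to 119.5 CPM at 12 h and 68.4 to 123 CPM at 1 h. Meningeal fibroblast markers (6 of 7 detected, Igf2 at 0) summed to 91.5 to 131 CPM at 1 week, 54.8 to 63.3 CPM at 12 h and 31.1 to 54.4 CPM at 1 h. Alas2 and Igf2 were at 0 in the fasting table too but not in the 1-month table, so their 0 is not read as absence. The part of depth and of the blood and meningeal markers in the calls at 1 week was not tested. By edgeR and by DESeq2, 0 of the 4 were called for 24 h over fed (0.0343% of all genes), for 72 h over 24 h (1.63%) or for 1 month refed over its control (10.1%). Without adjustment, 1, 2 and 0 of them were below 0.05 in these comparisons. Of all genes, 2118 of 20408, 4799 of 20408 and 4028 of 14867 were. For cold over no cold edgeR called none of the 4 and 0 of 20408 genes (0%). There, 1296 genes were below 0.05 without adjustment and 57 passed by DESeq2, none of them among the 4.

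Mt3 lay between 72.1 and 93.8 CPM over the 10 refeeding libraries. It read 82.7, 83.6 and 84.6 CPM at 1 h of refeeding, 79.8, 78.4 and 72.1 CPM at 12 h and 88.1, 90.9, 93.8 and 85.0 CPM at 1 week. The 12 h libraries were the lowest and the 1-week libraries the highest, without overlap. Mt3 rose by 0.22 ± 0.06 on the log2 scale at 1 week over 12 h (adjusted p = 0.0254, edgeR), a ratio of 1.16. This call was lost without 12 h library 2 or 3 and without 1-week library 1, 2 or 3, with adjusted p between 0.0504 and 0.170 and changes between 0.17 and 0.24, and with the 2 groups fitted alone (adjusted p = 0.0504). For 12 h over 1 h the change was -0.12 ± 0.06 (95% interval -0.25 to -0.002, adjusted p = 0.200), and for 1 week over 1 h it was 0.10 ± 0.06 (-0.02 to 0.21, adjusted p = 0.232). The first of these intervals just leaves out no change, while edgeR's test gave an unadjusted p above 0.05 there.

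In the fasting table Mt3 read 113, 139.9 and 97.0 CPM in fed libraries, 99.0, 161 and 104 CPM after 24 h and 93.9, 90.5 and 80.3 CPM after 72 h. The 72 h libraries lay below all fed and 24 h libraries. The differences did not pass, with -0.40 ± 0.18 for 72 h over fed (95% interval -0.76 to -0.05, adjusted p = 0.133) and -0.46 ± 0.18 for 72 h over 24 h (adjusted p = 0.157). It read 105, 84.9 and 108 CPM in the cold fast, which overlapped the fast without cold (0.17 ± 0.18, adjusted p = 0.952). In the 1-month table Mt3 read 143, 191, 149 and 149 CPM in refed libraries and 123, 133, 170.5 and 152 CPM in fed controls (0.13 ± 0.11, 95% interval -0.08 to 0.34, adjusted p = 0.472). Refed library 2 was well above the rest of its group.

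Among the refeeding times Slc30a1, the zinc exporter of the cell surface, was lowest at 12 h and highest at 1 week. It read 23.5, 22.8 and 22.4 CPM at 1 h, 21.6, 16.6 and 19.2 CPM at 12 h and 26.0, 29.5, 30.4 and 26.7 CPM at 1 week. The 3 groups did not overlap. Slc30a1 rose by 0.56 ± 0.09 on the log2 scale at 1 week over 12 h (28.2 ± 2.11 CPM against 19.2 ± 2.49 CPM, SD, n = 4 and n = 3, edgeR adjusted p = 0.00193), with adjusted p of at most 0.0154 over all settings tried. At 1 week over 1 h it rose by 0.30 ± 0.09 (adjusted p = 0.0211). That second call was lost without any 1 of the 1 h libraries or without 1-week library 3, with adjusted p between 0.0515 and 0.0821. Mt1 at 1 week was below its own 1 h level. For 12 h over 1 h Slc30a1 changed by -0.26 ± 0.10 (95% interval -0.45 to -0.07), which did not pass (adjusted p = 0.0857) but was called without 12 h library 1 (-0.37 ± 0.10, adjusted p = 0.0177).

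In the fasting table Slc30a1 read 44.3, 44.8 and 34.0 CPM in fed libraries, 30.7, 41.5 and 30.0 CPM after 24 h and 33.4, 27.3 and 29.9 CPM after 72 h. The 72 h libraries lay below all fed libraries by a narrow margin. The change of -0.44 ± 0.15 for 72 h over fed (95% interval -0.73 to -0.15) missed the threshold (adjusted p = 0.0581). It was called by DESeq2 (adjusted p = 0.0347), with the 2 groups fitted alone (adjusted p = 0.0372) and without fed library 3 (adjusted p = 0.0177). Slc30a1 read 33.4, 34.4 and 28.4 CPM in the cold fast, which overlapped the fast without cold (0.09 ± 0.15, adjusted p = 0.972). At 1 month it read 38.1, 32.7, 33.5 and 39.3 CPM in refed libraries and 40.3, 43.9, 34.5 and 33.7 CPM in fed controls, which overlapped (-0.09 ± 0.10, 95% interval -0.29 to 0.11, adjusted p = 0.614). Other genes on the opposite strand cover 11.7% of its span.

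Slc30a3, the zinc carrier of synaptic vesicles, passed in no comparison and varied most between libraries of a group. In refeeding it read 7.93, 7.87 and 6.49 CPM at 1 h, 6.49, 2.05 and 13.3 CPM at 12 h and 2.64, 1.85, 2.92 and 2.78 CPM at 1 week. All 1-week libraries lay below all 1 h libraries, and the 12 h libraries spanned both. For 1 week over 1 h the log2 fold change was -1.53 ± 0.51 (95% interval -2.53 to -0.53), with adjusted p = 0.0608. DESeq2 called it (adjusted p = 0.0160), as did edgeR with the 2 groups fitted alone (adjusted p = 3.03e-05). Set over 12 h, the 1-week change was -1.52 ± 0.51 (adjusted p = 0.10), which was called by DESeq2 (adjusted p = 0.0321) and without 12 h library 2 (-1.95 ± 0.24, adjusted p = 0.00418). For 12 h over 1 h it was -0.01 ± 0.54 (95% interval -1.06 to 1.03, adjusted p = 0.990).

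The 8 markers of cortical glutamatergic neurons summed to 325, 297 and 291 CPM in the 1 h libraries, to 292, 177 and 297 CPM in the 12 h libraries and to 163, 181, 173 and 159.8 CPM in the 1-week libraries. Library 2 had the least Slc30a3 of its group at both 12 h and 1 week, with the least of these markers at 12 h and the most at 1 week. In the fasting table Slc30a3 read 8.31, 6.37 and 12.5 CPM in fed libraries, 3.22, 10.2 and 4.77 CPM after 24 h and 4.39, 6.29 and 6.86 CPM after 72 h. The same markers summed to 300.4, 296 and 345 CPM in fed libraries, to 183, 410 and 202 CPM after 24 h and to 180.3, 167 and 172 CPM after 72 h. The library with the most of these markers had the most Slc30a3 in the fed and 24 h groups and the least in the 72 h group. The part of these cells in the levels of Slc30a3 was not tested. Slc30a3 changed by -0.59 ± 0.40 for 24 h over fed (adjusted p = 0.648) and by -0.63 ± 0.39 for 72 h over fed (adjusted p = 0.268), with overlapping groups. In the cold fast it read 4.31, 3.55 and 6.85 CPM and overlapped the fast without cold (-0.25 ± 0.40, adjusted p = 0.971). At 1 month it read 0.504, 1.36, 0.282 and 1.69 CPM in refed libraries and 0.960, 1.63, 1.53 and 1.65 CPM in fed controls, from 3 to 21 counts per library (-0.62 ± 0.42, 95% interval -1.43 to 0.20, adjusted p = 0.362). Other genes on the opposite strand cover 19.3% of its span.

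Among the refeeding times Slc39a10, the importer, was highest at 12 h, when Mt1 was lowest. It read 89.0, 99.6 and 102 CPM at 1 h, 155, 127 and 133 CPM at 12 h and 97.8, 119.7, 112 and 111 CPM at 1 week. The 12 h libraries were all above those of the other groups, and the 1 h and 1-week libraries overlapped. It rose by 0.52 ± 0.09 on the log2 scale at 12 h over 1 h, with 139 ± 14.8 CPM at 12 h and 96.8 ± 6.89 CPM at 1 h (SD, n = 3 each, edgeR adjusted p = 0.00210). It fell by 0.33 ± 0.08 at 1 week over 12 h (110 ± 9.06 CPM at 1 week, n = 4, adjusted p = 0.0188). The rise at 12 h was called under every setting tried, with adjusted p of at most 0.0159. The fall at 1 week was lost without 12 h library 1 (adjusted p = 0.0607, -0.23 ± 0.08) and without 1-week library 1 (adjusted p = 0.0616, -0.28 ± 0.08). Between 1 week and 1 h the change was 0.18 ± 0.08 (95% interval 0.02 to 0.34, adjusted p = 0.115).

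Slc39a10 was lower after the 72 h fast than in fed mice. It read 188, 175 and 165 CPM in fed libraries, 117, 165 and 127 CPM after 24 h and 105, 121 and 96.9 CPM after 72 h. All fasted libraries lay below all fed libraries, the highest 24 h library by a narrow margin. At 72 h over fed it fell by 0.71 ± 0.13 on the log2 scale, with 108 ± 12.0 CPM after 72 h and 176 ± 11.4 CPM when fed (SD, n = 3 each, edgeR adjusted p = 0.00942). The call held under every setting tried, with adjusted p between 1.26e-05 and 0.0446. At 24 h over fed the change of -0.37 ± 0.13 (95% interval -0.61 to -0.13) did not pass (adjusted p = 0.351), nor did -0.34 ± 0.13 for 72 h over 24 h (adjusted p = 0.138). For 72 h over fed the summed markers of 10 of 12 cell types were lower without overlap, all but those of hypothalamic neurons and oligodendrocytes. Among them astrocyte markers (10 of 10 detected) summed to 3882 to 4060 CPM after 72 h and 4504 to 5675 CPM when fed. Striatal markers (8 of 8) summed to 386 to 456 CPM after 72 h and 595 to 1041 CPM when fed, and endothelial markers (10 of 10) to 238.2 to 247.4 CPM after 72 h and 335 to 369 CPM when fed. For 12 h over 1 h of refeeding the microglial sum (5 of 6 detected) was higher, at 145 to 173 CPM at 12 h and 116 to 127 CPM at 1 h. P2ry12 was at 0 in the fasting and refeeding tables but not in the 1-month table, so its 0 is not read as absence. The meningeal sum was higher too at 12 h, and the astrocyte and choroid plexus sums were lower. The part of these cells in the level of Slc39a10 was not tested. In the cold fast Slc39a10 read 103, 102 and 108 CPM and overlapped the fast without cold (-0.05 ± 0.13, 95% interval -0.29 to 0.20, adjusted p = 0.979). At 1 month it read 131, 133, 135 and 143 CPM in refed libraries and 109, 134, 128 and 139 CPM in fed controls, which overlapped (0.09 ± 0.08, 95% interval -0.06 to 0.24, adjusted p = 0.503).

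**Figure D3:**
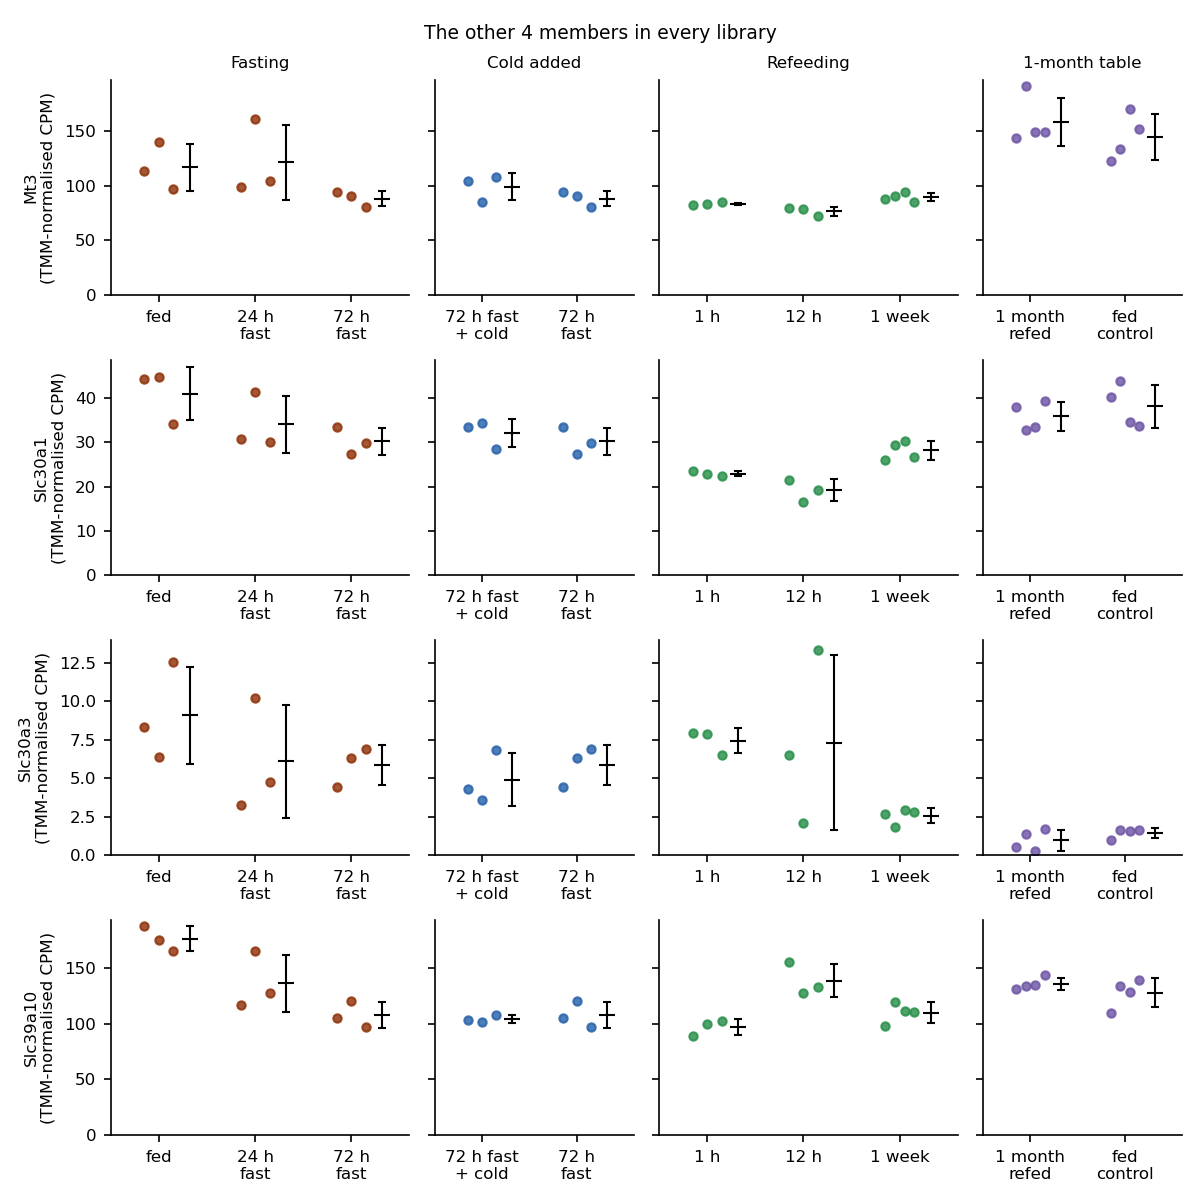
Levels of Mt3, Slc30a1, Slc30a3 and Slc39a10 (TMM-normalised CPM, linear axes from 0) in every library, with the mean and SD of each group beside the dots and the same 4 panels in each row. Slc39a10 is highest at 12 h among the refeeding times, Slc30a1 highest at 1 week, and Slc30a3 spans 2.05 to 13.3 CPM within the 12 h group.

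The other genes of the pathway were read from a list of 28 without Mt1, made up of 3 further metallothioneins, 10 exporters, 14 importers and Mtf1, the gene of the zinc-sensing factor. Of these, 25 passed the filter on low counts in the fasting table and 24 in each other table. Mt4, Slc30a8 and Slc39a5 passed in none. Other genes overlap 100% of the span of Slc39a5, 97% of that of Slc39a7 and 53.1% of that of Slc39a13, which all stayed in the list. Slc39a7 averaged 0.130 to 0.305 CPM in the fasting groups, against 77.8 and 78.4 CPM in the 1-month groups. Like Mt2, it is among the 25 of the fasting table, and its low values there are not read as low expression. For 1 week over 12 h 5 of the list were called higher and 2 lower, beside 6.56% and 5% of all genes. Their median change was 0.09, against -0.01 for all genes tested. For 1 week over 1 h 4 were higher and 0 lower, beside 13.5% in each direction (median 0.09, against 0.00), and for 12 h over 1 h 2 were higher and 1 lower, beside 7.08% and 7.14% (median -0.04, against 0.00). Mt2, which could not be read in the refeeding table, is among the 5 higher for 1 week over 12 h. It is also the 1 lower for 12 h over 1 h. For 72 h over fed 1 was higher and 1 lower, beside 7.28% and 7.78% (median -0.14, against 0.01), and at 1 month 1 was higher and 0 lower, beside 6.37% and 3.76% (median 0.04, against 0.00). By edgeR and by DESeq2, 0 of the list were called for 24 h over fed (beside 0.0245% of all genes higher and 0.0098% lower), for 72 h over 24 h (beside 0.568% and 1.06%) or for cold over no cold (beside 0% and 0%). Without adjustment 2, 3 and 2 of the 25 were below 0.05 there, beside 2118, 4799 and 1296 of all 20408 genes. Mtf1 passed in no edgeR comparison.

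Among the importers Slc39a12, which encodes a zinc importer of the brain (ZIP12), rose at 1 week of refeeding over both earlier times. It averaged 78.6 ± 7.66 CPM at 1 week (SD, n = 4), 61.7 ± 4.05 CPM at 12 h (n = 3) and 55.1 ± 3.06 CPM at 1 h (n = 3). The change was 0.51 ± 0.08 for 1 week over 1 h (edgeR adjusted p = 0.000320) and 0.35 ± 0.08 for 1 week over 12 h (adjusted p = 0.0108), of which the second was lost without 12 h library 2 (adjusted p = 0.0555). The 1-week libraries also differed from both earlier times in the blood and meningeal sums given above, whose part in these changes was not tested. Slc39a11, another ZIP gene, rose to 35 ± 1.04 CPM after 72 h of fasting, against 23.8 ± 2.00 CPM when fed (SD, n = 3 each, 0.56 ± 0.12, adjusted p = 0.0178). It also rose at 1 week of refeeding, at 40.6 ± 4.03 CPM against 33.2 ± 1.51 CPM at 1 h (0.29 ± 0.09, adjusted p = 0.0335). The lower cell type marker sums after 72 h given for Slc39a10 stand beside the first of these too, and their part in it was not tested. It was lost without 72 h library 2 or 3 or fed library 1 or 2 (adjusted p 0.0627 to 0.0722). The second was lost without 1 h library 2 or 3 or 1-week library 1 or 4 (adjusted p 0.0703 to 0.107).

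Calls for 5 further genes kept their direction but were each lost in at least 1 of the fits that left out a library. Slc30a10, whose product exports manganese, rose at 1 week over 1 h (18.8 ± 1.07 CPM against 14.9 ± 1.26 CPM, 0.34 ± 0.08, edgeR adjusted p = 0.00845) and was lost without 1 h library 1 (0.27 ± 0.09, adjusted p = 0.0563). Slc30a6, of the Golgi exporter family, rose at 12 h over 1 h (14.3 ± 0.876 CPM against 10.9 ± 1.62 CPM, 0.38 ± 0.11, adjusted p = 0.0310). It was lost without any of 4 libraries (12 h libraries 2 and 3, 1 h libraries 1 and 2) and with the 2 groups fitted alone, and leaving out 1 library gave changes of 0.28 to 0.49. Slc39a2 fell at 1 week over 12 h (5.29 ± 0.533 CPM against 7.10 ± 0.232 CPM, -0.42 ± 0.11, adjusted p = 0.0233). It was lost without any of 4 libraries (12 h libraries 2 and 3, 1-week libraries 1 and 2), with changes of -0.47 to -0.36 over the libraries left out. Slc39a9 rose at 1 week over 12 h (63.5 ± 3.32 CPM against 54.4 ± 3.19 CPM, 0.22 ± 0.07, adjusted p = 0.0475). It was lost with the 2 groups fitted alone and when any one library was left out other than 12 h library 1, with changes of 0.17 to 0.28. Slc39a8, which carries zinc and manganese into cells, rose at 1 month over control (6.79 ± 0.632 CPM against 4.58 ± 0.526 CPM, 0.56 ± 0.17, adjusted p = 0.0410). That call was lost without the filter on low counts (adjusted p = 0.0528), with the replicate block (adjusted p = 0.115) and when any one library was left out other than control library 5 or refed library 1, with changes of 0.50 to 0.62. In the same comparison the summed markers of 5 of 12 cell types were higher without overlap. Meningeal fibroblast markers (7 of 7 detected) summed to 473 to 788 CPM in refed libraries and 82.0 to 185 CPM in controls. Smooth muscle and pericyte markers (8 of 8) summed to 320.4 to 502 CPM in refed libraries and 176 to 219 CPM in controls. Endothelial markers (10 of 10) summed to 404 to 520 CPM in refed libraries and 304 to 348 CPM in controls, and the oligodendrocyte and microglial sums were higher as well. Their part in the level of Slc39a8 was not tested.

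**Figure D4:**
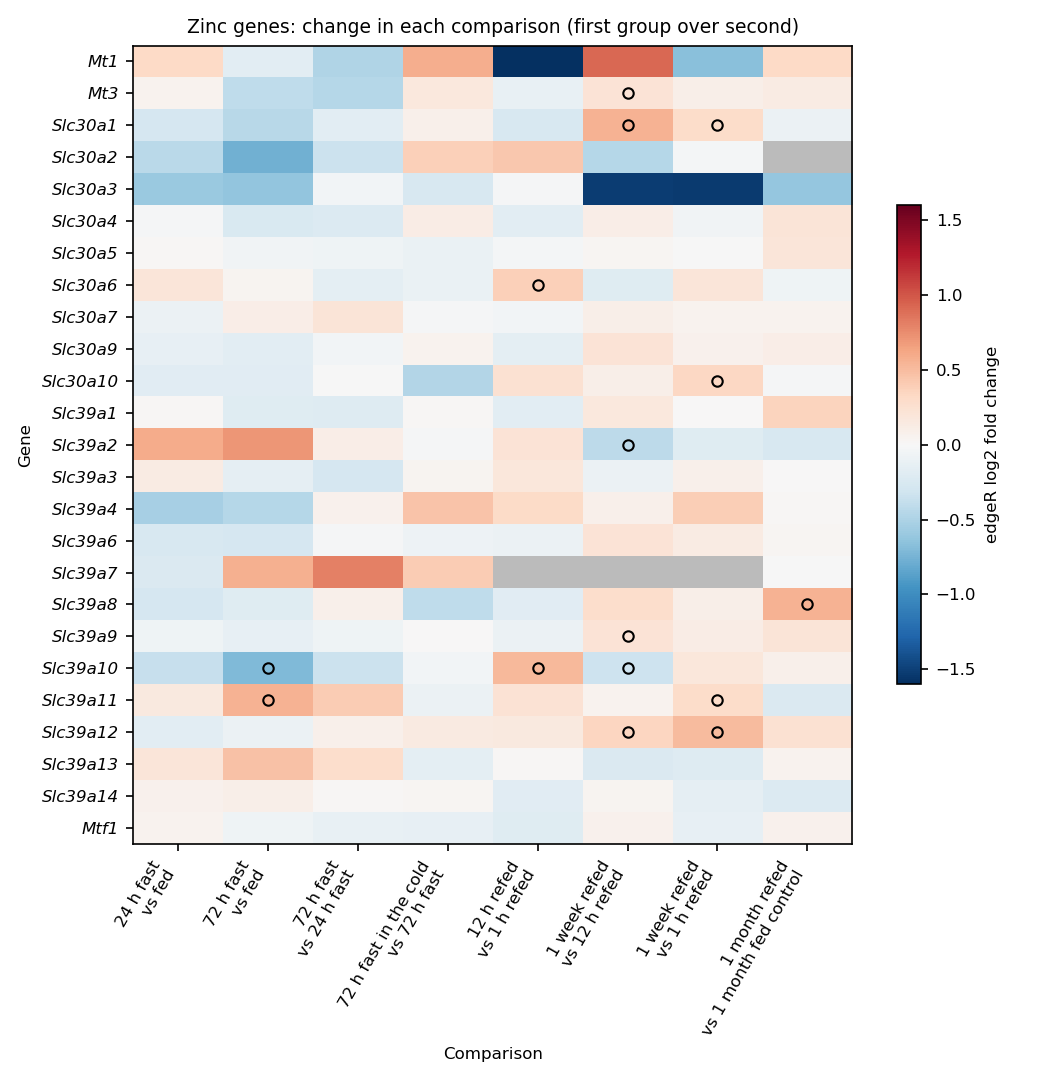
edgeR log2 fold change (colour, first group over second) of Mt1 and of the 24 genes of the zinc list other than Mt2 that passed the filter in at least 1 table, in the 8 comparisons; circles mark calls, grey marks genes filtered out, and Mt1 was not tested. Calls stand mostly in the columns of the refeeding times, and the deepest blue squares are Mt1 for 12 h over 1 h and Slc30a3 for 1 week over each earlier time.

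The genes whose levels ran most like Mt1 were found from Pearson's r of log2 CPM, over the 12 fasting libraries and over the 10 refeeding libraries, ranked by the smaller of the 2 values among 11960 genes. The points share their libraries and the differences between groups, so r is a description. The 8 leading genes were Pcbp2, Os9, Fbxo21, Glul, Sdc4, Mycl, Mrpl2 and Hmgb3, all with r of at least 0.82 in both tables. Other genes overlap 53.5% of the span of Pcbp2 and all of that of Mrpl2. Sdc4, the cell surface proteoglycan syndecan-4, had r of 0.83 and 0.98. It averaged 103 ± 5.15 CPM at 1 h of refeeding, 55.3 ± 1.15 CPM at 12 h and 78.4 ± 7.56 CPM at 1 week (SD, n = 3, 3 and 4). In the cold fast Sdc4 stood at 129 ± 5.89 CPM, against 95 ± 2.77 CPM in the fast without cold (n = 3 each). All these libraries were used to rank it, so its levels describe the choice and are no further evidence of likeness. Glul, glutamine synthetase of astrocytes, had r of 0.85 and 0.87, with 1281 ± 35.7 CPM at 1 h, 887 ± 79.1 CPM at 12 h and 988 ± 77.6 CPM at 1 week. Of the other members Mt3 had r of 0.63 and 0.51 and Slc30a1 r of 0.29 and 0.49. Slc30a3 had -0.11 and 0.12, and Slc39a10 had 0.03 over the fasting libraries and -0.87 over the refeeding libraries.

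For levels against never-fasted mice beyond the fast, the authors' deposited table of fed and 1-week refed libraries gives log2 fold changes as fed over 1 week, so positive values mean lower at 1 week. In the authors' deposited table these were 0.91 for Mt1, 0.40 for Mt3 (q = 0.0324), 0.57 for Slc30a1 (q = 0.00314), 1.71 for Slc30a3 (q = 8.62e-10) and 0.73 for Slc39a10 (q = 2.74e-05). The 2 groups come from separate count tables, and table and group cannot be told apart in these values.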

How the data were processed

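Per the labels' protocols, the RNeasy kit gave total RNA, and a directional NEBNext kit with ribosomal depletion gave the libraries. The submitters' processing notes name HISAT2, featureCounts, edgeR and the build mm10. Raw counts per gene stood in 3 deposited tables, with 52286, 55401 and 22371 genes. The authors also deposited edgeR tables holding, per the file headers, a log2 fold change, a likelihood ratio p-value and q-values per gene. All 30 libraries in 9 groups were used, and 2 columns matching no labelled library were not. Over 36 pairs of replicates the chi-square per degree of freedom was 3.19 or more, so no pair agreed within sampling noise.

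Identifiers were matched to symbols in the files (52269 of 55401) or GENCODE M21 (3124), which also gave positions, and 8 had none. Start sites and sequences are from RefSeq GRCm38.p6. All groups of a table were fitted together in edgeR 4.0.16 (R 4.3.3), with filterByExpr, TMM scaling, robust quasi-likelihood F tests, Benjamini-Hochberg adjustment and a threshold of 0.05. The fit was tested on simulated data. The filter, DESeq2 1.42.0 (size factors and test), the 2 groups alone, a replicate block and each library left out were tried. Means ± SD and 95% intervals are over libraries. Intervals of fold changes use a normal approximation, which with so few libraries is narrower than the F test allows. Such an interval can leave out no change where the test does not pass.

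The members, lists and tests were chosen with earlier results of these data known. Named are the 5 members and Mt2 in every comparison, called genes of the zinc list, and the 8 genes most like Mt1 with a mean of at least 5 CPM in both tables. Counting appears not to have told strands apart, and to have taken in introns, in the fasting and refeeding tables, so genes with much overlap are named as such and no test spans tables.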

Additional observations from a re-analysis of the deposited data

Results flagged for a closer look

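In 3 of 39 sets of a gene and a group of 4 libraries, the highest or lowest library lay far from the rest of its group by Dixon's criterion, which chance alone gives in about 1 in 20 sets. All 3 were in the 1-month table. Mt3 read 191 CPM in refed library 2, against 143 to 149 CPM in the other refed libraries. Mt2 read 170.5 CPM in fed control library 4, against 86.3 to 96.2 CPM in the other controls. Slc30a3 read 0.960 CPM in fed control library 2, against 1.53 to 1.65 CPM in the other controls, from 10 counts in that library and 16 to 21 in the others.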

How the results depend on the processing

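In 91 of 91 recomputed changes Mt1 moved by less than the pooled SD of its log2 CPM within groups (0.23 in the fasting table, 0.10 in refeeding, 0.18 at 1 month), a wider bound than the SE; the shifts without 24 h library 2 exceeded the SE of 0.16. Of 649 recomputed gene changes in 57 pairs of gene and comparison, 626 kept their direction and 23 did not, all of them of uncalled changes. Of 558 with a test, 503 kept their side of the threshold, 47 lost a call and 8 gained one. With DESeq2, genes called numbered 240 for 24 h over fed (edgeR 7), 57 for cold (0), 1776 for 72 h over 24 h (333) and 4707 for 72 h over fed (3072), and zinc list genes 4 for 72 h over fed (2) and 2 at 1 month (1). Without a filter on low counts, 13 genes were called for 24 h over fed and 0 zinc genes at 1 month. With the 2 groups alone, 1 zinc gene was called for 12 h over 1 h (3). Leaving out 1 library gave 3 to 56 genes for 24 h over fed, 0 to 5 for cold, 0 to 328 for 72 h over 24 h, 434 to 5446 for 72 h over fed, 1314 to 3537 for 12 h over 1 h (2834), 589 to 3050 for 1 week over 12 h (2304) and 775 to 2856 at 1 month (1506), and zinc genes 1 to 4 for 72 h over fed, 2 to 7 for 12 h over 1 h, 3 to 8 for 1 week over 12 h (7), 2 to 4 for 1 week over 1 h (4) and 0 to 3 at 1 month. The cause was not tested, other than that fewer libraries entered. Same-numbered deviations correlated at -0.11 to 0.33 over 24 pairs. Groups are small and differently numbered pairs were not set beside these, so whether replicate numbers pair libraries cannot be told. With a replicate block 408 genes and 0 zinc genes were called at 1 month, and Slc39a11 was lost for 1 week over 1 h (adjusted p = 0.0990, edgeR). At 1 month Slc30a3 rests on 3 to 21 counts per library.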

Other observations

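Levels can be set beside each other per length in the 1-month table, as CPM per kilobase of annotated exon in fed controls. Mt2 stood highest at 189.9, then Mt3 at 136 and Mt1 at 118. The annotated exons of Mt1 cover its whole span of 1246 bases, against 588 bases of exon for Mt2, which lowers the value of Mt1. Before division by length Mt1 averaged 147 CPM and Mt2 112 CPM in these controls, so their order rests on the annotated lengths. The leading importers on this scale were Slc39a12 at 33.6, Slc39a7 (of the early secretory pathway) at 30.3, Slc39a6 at 24.0 and Slc39a10 at 21.0. Among exporters Slc30a9, of mitochondria, was at 13.7, Slc30a1 at 7.27 and Slc30a5 at 7.23. Slc39a7, of whose span other genes overlap 97%, fell below the filter in the refeeding table.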
